A study of Mus musculus with 25 samples.

Results

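The genes described here are Sst, which encodes the peptide precursor of somatostatin, the somatostatin receptor genes Sstr1, Sstr2, Sstr3, Sstr4 and Sstr5, and the homeobox gene Bsx. They are 7 of 30903 gene symbols measured, and each was read from its own row over all 25 cells. Single fluorescent cells were picked by hand after dissociation of the mouse hypothalamic arcuate nucleus with the median eminence. The mice were RIP-Cre, on a (C57BL/6 x DBA)F2 background, where a rat insulin promoter drives Cre, and green fluorescent protein (GFP) came from an adeno-associated virus that needs Cre to express it. Tissue of 2 adult males (mean age 63 days) was pooled, so the 25 cells are 1 group and 1 sample, with no cells lacking GFP analysed here. Cells were not treated as replicates and the genes were proposed with these values known, so all values and counts are a description and no p-value is given.

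Somatostatin is a short inhibitory peptide that is released by neurons and by endocrine cells, and at the median eminence it holds back the release of growth hormone from the pituitary. Its receptors span the membrane and couple to inhibitory G proteins, which lower the production of cyclic AMP, open potassium channels and close calcium channels. Somatostatin receptors on a cell that itself makes the peptide can act as autoreceptors. Bsx, brain-specific homeobox, is a transcription factor of the hypothalamus that is known for its part in the expression of Npy and Agrp in feeding neurons.

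The coding end of Sst is shown with that of Cort, the gene of cortistatin, because the receptors bind both peptides and the genes are alike where the peptides are encoded. The precursor ends in somatostatin-28, and its last 14 codons (capitals) make somatostatin-14. The stretches are the last 84 and 42 coding bases of the GENCODE M21 transcripts (GRCm38), on chr16:23889732-23889815 and chr4:149125267-149125308, both on the minus strand.
Sst: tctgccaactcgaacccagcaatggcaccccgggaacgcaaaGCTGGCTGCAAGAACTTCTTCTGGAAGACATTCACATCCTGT
Cort: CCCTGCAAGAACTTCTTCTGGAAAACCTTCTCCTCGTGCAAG
With the Cort stretch set 1 codon further along, 31 of 39 bases were identical (79.5%). Cort was listed above 0 in 1 cell, at 2.04 RPKM, in cell 11, where Sst was at 0. RPKM is reads per kilobase of exon, scaled to the reads of the cell.

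All 25 cells had neuronal transcripts, with 5 to 8 of 8 neuronal markers at 10 RPKM or more, the level at which a gene was counted in a cell. Of 23 markers of glia, microglia, vessels and pituitary, 19 were at that level in no cell and 15 were at 0 throughout, among them the microglial C1qa, C1qb and C1qc and the endothelial Cldn5. The 4 at the level somewhere were Pecam1, in 4 cells, and Tmem119, Rgs5 and Gh, in 1 cell each. Pecam1 was above 0 in 18 cells. Pomc, a listed pituitary marker that was at the level in 10 cells, was left out of the 23. The scaling total of each cell, read from the steps between low values, was 889500 to 2993000 reads with a median of 1819000. At these totals, 10 RPKM equals 18.2 reads per kb of exon at the median depth and 8.89 in cell 9, the shallowest, which had Sst. Numbers of cells are those of the labels.

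Sst was all or nothing in these cells. It stood at 1577 RPKM in cell 9, 916 RPKM in cell 1, 786 RPKM in cell 6, 713 RPKM in cell 25 and, in cell 31, 709.5 RPKM. The other 20 cells were all at 0. In cells 1, 6 and 9 no gene was higher than Sst, and in cells 25 and 31 it ranked 4. The 5 values lay within 2.22-fold of each other and rest on an estimated 614 to 1086 reads per cell, so the high and the zero values are far apart at this depth. The share of Sst cells was 20% (exact Clopper-Pearson 95% interval 6.83 to 40.7%, which covers counting error over the picked cells only). The Sst gene lies on the minus strand at chr16:23889573-23890958 (GRCm38) and has 721 bases of exon.

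Bsx was found in 4 cells, and all 4 were Sst cells. It reached 111 RPKM in cell 1, 108 RPKM in cell 31, 65.9 RPKM in cell 9 and, in cell 6, 26.9 RPKM. The remaining 21 cells were at 0. Among the Sst cells, cell 25 alone lacked it. The order of the cells was not the same for both genes: cell 9, the highest for Sst, was the third for Bsx. These values rest on an estimated 147 to 539 reads, over 2960 bases of exon at chr9:40874127-40880057 on the plus strand. Of 761 genes at the level in exactly 4 cells, Bsx was the 1 gene whose cells all carried Sst (0.131%). The choice of Bsx rested on this overlap, so the share is given as background and supports nothing. The share of Bsx cells was 16% (interval 4.54 to 36.1%).

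**Figure D1:**
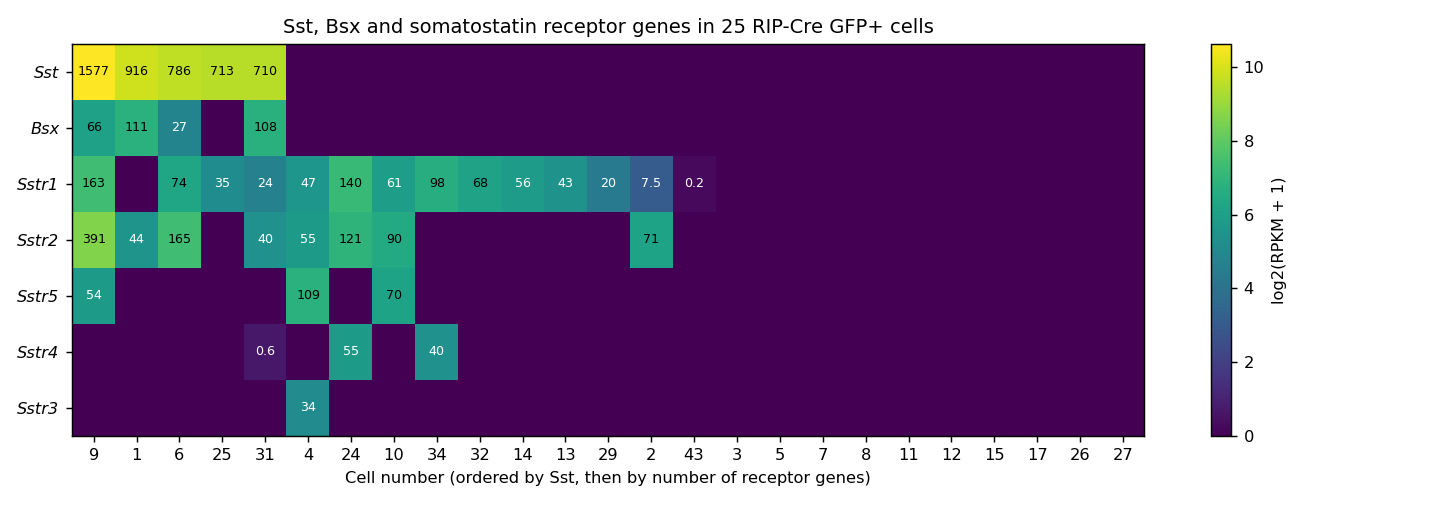
Values of the 7 genes (rows) in each of the 25 cells (columns, ordered by Sst and then by the number of receptor genes at 10 RPKM or more), with color for log2(RPKM + 1) and numbers for RPKM above 0. Sst is at 709.5 RPKM or more in 5 cells and at 0 in 20, Bsx is found in 4 of those 5, and the receptor genes extend into cells without Sst.

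RNA quality and depth differed among the Sst cells and are given beside these counts. Malat1, a nuclear noncoding RNA, was below 20 RPKM in 6 of the 25 cells, and 3 of those were Sst cells (1, 6 and 31), all 3 with Bsx. Without the 6 cells, Sst remained in 2 cells (9 and 25) and Bsx in 1 (cell 9), where Sst was again present. The Sst cells had scaling totals of 889500 to 1849000 reads, within the range of the other cells at the upper end and below it in cell 9. The summed level of the 23 markers of other cell types was 0 in 4 of the Sst cells and 52.2 RPKM in cell 25, against 0 to 35.8 RPKM in the other 20. The part of Malat1 and of depth in the result was not tested.

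Sstr1 was the most widespread receptor gene. It encodes a receptor of the group that it forms with Sstr4, and it was at the level in 12 of 25 cells (48%, interval 27.8 to 68.7%). In the Sst cells it was 163 RPKM in cell 9, 74.5 RPKM in cell 6, 34.7 RPKM in cell 25 and, in cell 31, 24.1 RPKM. It was listed at 0 in cell 1. The 8 cells with Sstr1 and no Sst ranged from 19.9 RPKM in cell 29 to 140.03 RPKM in cell 24, so the ranges with and without Sst overlapped. Among genes at the level in exactly 12 cells, 9.34% had at least 4 of them among the Sst cells, as Sstr1 did. Lower values were 7.53 RPKM in cell 2 and 0.19 RPKM in cell 43. The gene lies at chr12:58211772-58214444 on the plus strand. With its 2046 bases of GENCODE exon, 0.19 RPKM would be 0.511 reads. A single read there would need a length of 4002 bases. If the authors used such a length, the estimate of 59.1 to 443 reads behind its 12 values is too low.

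Sstr2 stood with Sst in 4 cells, as many as Sstr1 did, out of fewer cells in all. It reached 10 RPKM in 8 cells (32%; interval 14.9 to 53.5%). Among the Sst cells it was 391 RPKM in cell 9, 165 RPKM in cell 6, 44.2 RPKM in cell 1 and, in cell 31, 40.2 RPKM. It was listed at 0 in cell 25. The cells with Sstr2 and no Sst were cell 24 at 121 RPKM, cell 10 at 89.9 RPKM, cell 2 at 71.0 RPKM and cell 4 at 54.9 RPKM. The 2 highest Sstr2 values were in Sst cells and so were the 2 lowest, which leaves the levels of both kinds of cell overlapping. Of 520 genes found in exactly 8 cells, 1.73% had 4 or more among the Sst cells. All 4 Bsx cells carried Sstr2. Without the 6 cells low in Malat1, Sstr2 was in 5 cells, 1 of them with Sst (cell 9), and Sstr1 was in 2 of the 2 Sst cells left. The gene is at chr11:113619342-113626028 on the plus strand, inside Slc39a11 on the other strand, with which it shares 0 exon bases. Slc39a11 was at 10 RPKM or more in 11 cells, with a highest value of 110.1 RPKM. The libraries keep no strand, and the part of unspliced Slc39a11 reads in the Sstr2 values was not tested.

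**Figure D2:**
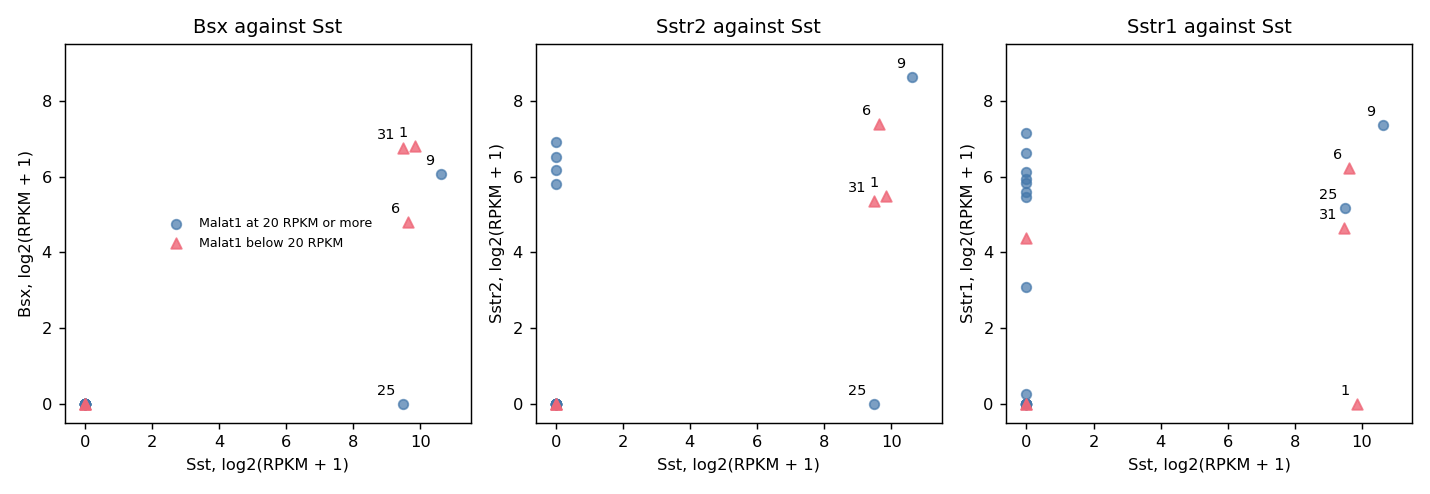
Bsx, Sstr2 and Sstr1 against Sst in 25 cells, each axis in log2(RPKM + 1), with triangles for the 6 cells in which Malat1 was below 20 RPKM and cell numbers beside the Sst cells. The left panel has no cell with Bsx and without Sst, while Sstr2 and Sstr1 also reach 10 RPKM in 4 and 8 cells without Sst, and cell 25 is at 0 for Bsx and Sstr2. Points at 0 on both axes lie on top of each other.

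The promoters of Sst and Sstr2 shared an element. The cyclic AMP response element, the palindrome TGACGTCA, is known from the Sst promoter as a site bound by the transcription factor CREB. In RefSeq's windows of 250 bases before the start (GRCm38.p6), found for 5 of the 7 genes, it was present in Sst and Sstr2 and not in the windows of Bsx, Sstr3 and Sstr4. It was present in 1.55% of 32851 windows of the same length. The windows of 30 bases around it, on chr16:23890874-23890903 (minus strand) and chr11:113619258-113619287 (plus strand), have the element in capitals.
Sst: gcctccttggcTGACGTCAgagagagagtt
Sstr2: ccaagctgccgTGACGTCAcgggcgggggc
The element began 48 bases before the RefSeq start of Sst and 58 bases before that of Sstr2. The GENCODE span of Sst given above begins further upstream, so the Sst element lies inside that span. Its first 5 letters on either strand (TGACG, a part of the full element) were in 17.8% of windows and also in 1 of the 2 windows of Sstr3. The letters TAAT, the core that many homeodomain proteins bind, were present once in the Sst window and in 54.9% of all windows. The longer window of Sstr2, chr11:113619077-113619326, is printed because this gene was in all 4 Bsx cells.
Sstr2: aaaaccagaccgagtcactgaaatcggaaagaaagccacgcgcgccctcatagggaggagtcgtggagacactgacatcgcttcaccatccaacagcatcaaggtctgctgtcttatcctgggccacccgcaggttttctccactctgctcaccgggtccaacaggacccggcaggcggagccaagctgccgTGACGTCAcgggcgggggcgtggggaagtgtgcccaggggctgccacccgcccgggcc
These are matches of letters and no binding was measured. Creb1, the gene of CREB, was above 0 in 9 cells and reached 10 RPKM in none, with a highest value of 5.66 RPKM.

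The other receptor genes were rare. Sstr5 was present in cells 4, 10 and 9, with 109, 69.7 and 54.2 RPKM. All 3 of these cells also had Sstr1 and Sstr2, and cell 9 was the 1 Sst cell among them, so without this cell, the shallowest, 0 cells had both Sst and Sstr5. Cell 24 held Sstr4 at 54.5 RPKM and cell 34 at 40.5 RPKM, both with Sstr1, and its 0.60 RPKM in Sst cell 31 corresponds to 1.03 reads. Sstr3 was found in cell 4 alone, at 34.2 RPKM. With 1 to 3 cells each, the shares were 12% for Sstr5 (interval 2.55 to 31.2%), 8% for Sstr4 (0.984 to 26.0%) and 4% for Sstr3 (0.101 to 20.4%). Their positions are chr17:25489875-25497288, chr2:148395344-148396767 and chr15:78537008-78544685.

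The receptors are related in sequence, which bears on whether reads of 1 gene can be told from those of another. Over the 10 pairs of coding sequences, 61.1 to 69.6% of aligned bases were identical, with Sstr1 and Sstr4 the closest pair (69.6%) and Sstr3 and Sstr5 next (68.3%). The longest run of identical bases was 15 to 23 bases in 9 pairs and 41 bases in the pair of Sstr3 and Sstr5. Sstr3 was at 0 in 2 of the 3 Sstr5 cells, and was present with Sstr5 in cell 4.

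In the 5 Sst cells, every value of Sst was above every value of the other members in any cell. In the cells at the level, the median was 786 RPKM for Sst, 86.7 RPKM for Bsx, 80.5 RPKM for Sstr2, 69.7 RPKM for Sstr5, 58.1 RPKM for Sstr1, 47.5 RPKM for Sstr4 and 34.2 RPKM for Sstr3. The highest value of any other member was 391 RPKM, for Sstr2. From Bsx down to Sstr4, the ranges of neighbours in this order overlapped: Bsx spanned 26.9 to 111 RPKM, Sstr2 40.2 to 391 RPKM, Sstr5 54.2 to 109 RPKM, Sstr1 19.9 to 163 RPKM and Sstr4 40.5 to 54.5 RPKM. Sstr3, with 1 cell, has no spread, and its value was below both of Sstr4. Values of the members were rarely low. Of 38 values above 0, 35 were at 10 RPKM or more (92.1%), where the share was 67.4% over all genes.

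Receptor genes were combined in a few ways. A total of 14 cells had at least 1 receptor gene and 11 had none. Sstr1 alone was found in 5 cells and Sstr2 alone in 2. Sstr1 and Sstr2 were shared by 6 cells, which is 50% of the Sstr1 cells and 75% of the Sstr2 cells. Cell 4 held the most, with Sstr1, Sstr2, Sstr3 and Sstr5, and no cell held all 5. This cell, the 1 cell with Sstr3 and the highest for Sstr5, was also the 1 cell with the pituitary marker Gh, at 15.24 RPKM, and the part of this in the result was not tested. Every Sst cell had at least 1 receptor gene: Sstr2 alone in cell 1, Sstr1 alone in cell 25, both in cells 6 and 31, and both with Sstr5 in cell 9. Of the 20 cells without Sst, 9 had a receptor gene and 11 had none. The share of genes in 14 cells that were in all 5 Sst cells was not computed, so nothing is drawn from this count. Summed receptor levels ran from 34.7 to 609 RPKM in the Sst cells and from 0 to 315 RPKM in the others. Cell 9 was highest for Sst, Sstr1, Sstr2 and the receptor sum, and it was also the shallowest cell. Cells with no receptor gene had scaling totals of 1315000 to 2993000 reads and cells with at least 1 had 889500 to 2709000. The part of depth in the receptor zeros was not tested.

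**Figure D3:**
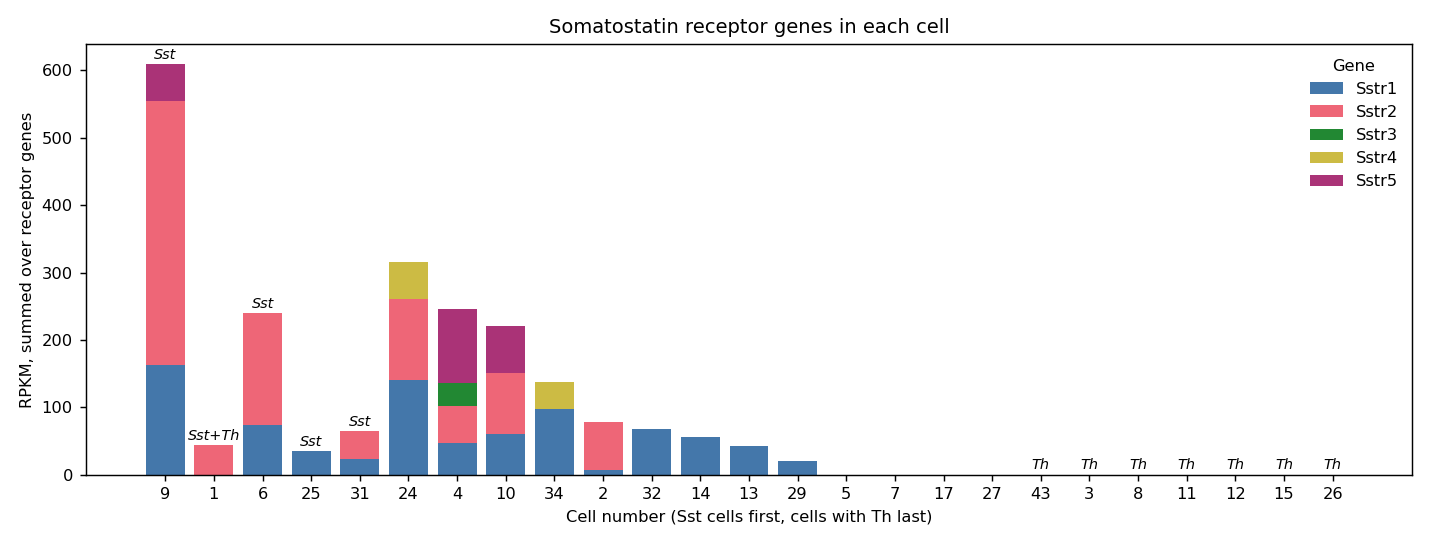
Summed RPKM of the 5 receptor genes in each of the 25 cells, colored by gene, with the Sst cells first and marked, and the cells with Th at 10 RPKM or more marked. The 7 Th cells without Sst, at the right, have no bar that can be seen, and their highest receptor value is 0.19 RPKM.

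A receptor gene was at the level in 1 of the 8 cells with Th, the gene of tyrosine hydroxylase, an enzyme of dopamine synthesis. Th was at the level in 8 cells, at 186 to 784 RPKM. In 7 of them (3, 8, 11, 12, 15, 26 and 43) no receptor gene was at the level, and the single value above 0 was 0.19 RPKM for Sstr1 in cell 43. The eighth, cell 1, had Sst, Bsx and Sstr2 at 44.2 RPKM beside Th at 318 RPKM. Sstr1 was thus in 0 of 8 Th cells. A count of 0 in 8 cells still allows a share of up to 37.5% (3 cells), for counting error only. Sstr1 was the 1 gene of 364 found in exactly 12 cells that was in no Th cell (0.275%). Sstr2 was in 1 of the 8, which was true of 19.8% of genes found in exactly 8 cells, counting those in 0 or 1. The Th cells were looked at after the values were seen.

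Bsx and Sst were set beside the peptide and transcription factor genes of arcuate neurons. Agrp, the feeding peptide of which Bsx is a known regulator, was in 2 of the 4 Bsx cells, with 13.7 RPKM for cell 1 and 25.8 RPKM for cell 6, and in 7 of the 21 cells without Bsx. Npy was in none of the Bsx cells. It was found in cells 29 and 34, at 90.9 and 208 RPKM, where Bsx and Sst were listed at 0 and Sstr1 was at 19.9 and 97.6 RPKM. All 5 Sst cells had Gad1, which makes GABA, and none had Slc17a6, the glutamate transporter of hypothalamic neurons. Over all cells these were in 23 and 2 of 25. The other GABA genes of the list were less uniform in the Sst cells. Gad2 was in 2 of the 5 Sst cells and in 19 of all 25, and Slc32a1 was in 3 of the 5 and in 10 of all 25. Nkx2-1, a factor of ventral hypothalamic development, was in 5 of 5 Sst cells and 7 of 20 others, and Six6 in 5 and 18. Of genes found in exactly 12 cells, as Nkx2-1 was, 1.1% were in all 5 Sst cells. Otp, a factor of hypothalamic peptide neurons, was in Sst cells 1 and 6 and in cells 34 and 43. Dlx2, a factor of GABA neurons, was in 0 of 5 Sst cells and 13 of 20 others, and 2.92% of genes in exactly 13 cells were in no Sst cell. The related Dlx1 and Dlx5 were each in 1 Sst cell (cell 25), and in 7 and 9 others. Lhx6, a factor of cortical somatostatin neurons, was at 0 in every cell, as was Pdx1, which drives somatostatin in pancreatic cells. Pthlh was in Sst cells 1 and 31, Gal and Cartpt in 6 and 9, Pomc in 9, and Ghrh in no Sst cell.

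Some genes of these lists were found mainly in cells with a receptor gene, and they were picked on their values. Gal, the gene of galanin, was in 5 cells (6, 9, 10, 29 and 32), all 5 with Sstr1, which was true of 2.02% of genes in exactly 5 cells. The homeobox gene Hmx3 was in 4 cells (10, 13, 24 and 34), all with Sstr1, as were 4.6% of genes in exactly 4 cells, while the related Hmx2 was in 4 cells of which 2 had Sstr1. Tbx3, a factor of arcuate neurons, was in 11 cells, 10 of which had a receptor gene, and 1 of 404 genes in exactly 11 cells (0.248%) reached this count. Pomc was not among these genes. It was in 10 cells, 6 of them with Sstr1 and 2 with Sstr2, where Sstr1 was in 12 and Sstr2 in 8 of all 25 cells.

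The genes whose values over the 25 cells were most like those of Sst were ranked by Pearson's r of log2(RPKM + 1), over 9782 genes at the level in at least 3 cells. Bsx, which was chosen for its overlap with Sst in these values, came first (r = 0.87, Spearman's rho = 0.88), and this rank supports nothing. Among those that followed were Tnfsfm13 (0.81), the chemokine gene Cxcl14 (0.81), Vill (0.74), Maged1 (0.70), 2810468N07Rik (0.68), the small GTPase gene Rnd1 (0.66), Npl (0.65) and Tacr1 (0.64), which encodes the receptor of substance P. In all, 0.235% of the genes reached r of 0.6. Sstr2 stood at rank 56 (r = 0.54), Sstr1 at rank 684 (0.30) and Sstr5 at rank 2500 (0.12). Tnfsfm13, Cxcl14 and Vill were at the level in 3 cells each, all with Sst. Maged1 differed from these: it was at the level in all 25 cells, with a highest value of 598 RPKM in an Sst cell and 451 RPKM among the others. The points are cells of 1 pool, and 20 of the 25 are at 0 for Sst. Without the 6 cells low in Malat1, the r of Sstr2 with Sst was 0.31, and none was computed for Bsx, which was left in 1 cell. The 10 genes most like Sst there shared 1 with the 10 from all cells.

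**Figure D4:**
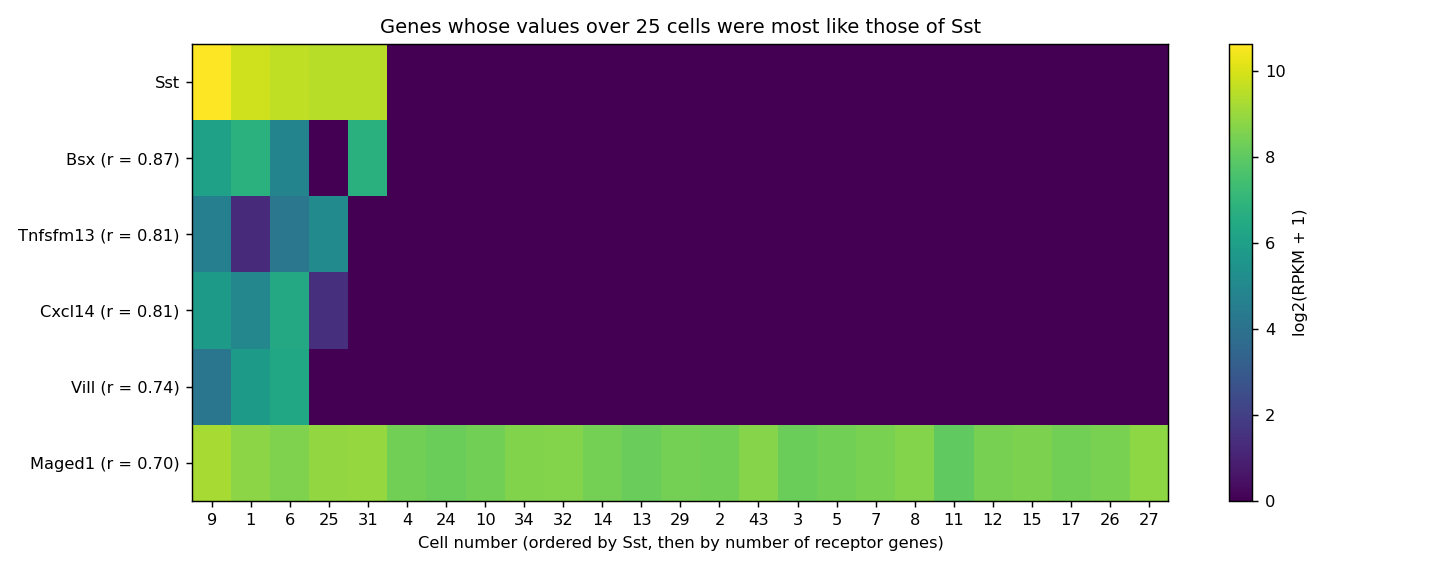
Sst and the 5 genes with the highest Pearson r to it (rows) in the 25 cells (columns, ordered by Sst and then by the number of receptor genes), with color for log2(RPKM + 1). Bsx (r = 0.87) is dark in cell 25 and in all cells without Sst, and Maged1 (r = 0.70) is bright in every cell.

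For Bsx the same ranking put Sst first (r = 0.87), then Vill (0.78), Cxcl14 (0.77), Tacr1 (0.77), the receptor gene Gpr12 (0.73), the parathyroid hormone receptor gene Pth2r (0.71), Akr1a1 (0.71), Ccdc113 (0.70), Npl (0.70) and Ell (0.68). The r with Sst is the value given above, for a pair chosen on these values, and supports nothing. Of the 9782 genes, 0.266% had r of 0.6 or more with Bsx, and Sstr2 was among them at rank 13 (r = 0.63). Without the 6 cells low in Malat1, where Bsx was left in 1 cell, this r was 0.53, below 0.6, at rank 329 of 12801 genes. Pth2r and Gpr12 were in all 4 Bsx cells and in 2 and 3 others. Sstr1 was at rank 1572 (r = 0.20).

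Of the machinery on which somatostatin and its receptors depend, the lists for peptide processing and for G protein subunits were the most widespread. For scale, 804 of all 30903 gene symbols were in every cell. Of 9 genes for peptide processing and granules, 6 were in every cell, led by Scg2 (median 374 RPKM over all cells), Scg5 (340.04), the carboxypeptidase gene Cpe (324), Pcsk1n (268) and Chga (218). The convertase gene Pcsk2 (picked on its values) was in 5 of 5 Sst cells and 7 of 20 others, while Pcsk1 was in 2 and 4 and Furin in 0 and 3. Of genes found in exactly 12 cells, as Pcsk2 was, 1.1% were in all 5 Sst cells. Of 9 genes for Gi/o protein subunits, 8 were in most cells and 6 in all, among them Gnb1 (median 201 RPKM), Gng3 (173), Gnai2 (148), Gnb2 (76.0) and Gng2 (64.9). Of 7 genes for adenylyl cyclases, the enzymes that make cyclic AMP, Adcy3 was in 16 cells and Adcy2 in 13, 4 were in fewer, and Adcy1 was in none.

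The channels that somatostatin receptors act on were less widespread. Of the 4 genes for G protein-gated potassium channels, Kcnj9 was in 14 cells, and Kcnj5 and Kcnj6 were in none, with highest values of 5.83 and 7.48 RPKM. The remaining gene, Kcnj3, named to complete the list, was in 6 cells. Kcnj9 was in 3 of 5 Sst cells, 10 of the 14 cells with a receptor gene and 4 of the 11 cells with none. Kcnj3 was in 4 of the 14 and 2 of the 11. The share of all genes with such counts was not computed, so nothing is drawn from these counts. The calcium channel gene Cacna1b was in 16 cells, 8 of the 14 with a receptor gene and 8 of the 11 with none. Of 11 measured genes for receptor desensitisation and scaffolds, Rgs4 was in 22 cells, Adrbk1 (a receptor kinase) and Rgs7 in 16 each and the arrestin gene Arrb2 in 13, 6 were in fewer and Grk5 in none. The phosphatase gene Dusp1 was in 22 cells, and the other 2 of that list in 8 or fewer.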

How the data were processed

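Libraries were made from each frozen cell by Smart-Seq2 with Nextera XT, per the labels' protocols. This chemistry keeps no strand and uses no molecular identifiers, so reads are not independent molecules. The authors deposited 1 table of 33082 rows and 25 cells. Its name says counts, but the values behave as RPKM: they are decimals, and low values times exon length fell on steps of 1, 2 and 3 reads. The submitters' processing notes name featureCounts 1.4.6, TopHat2 2.0.14, SAMtools 0.1.19, bcl2fastq and Picard 2.5.0, with mm10 and GRCm38, without roles. Which annotation was counted is not given in the sources used here.

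Left out were 26 rows with date numbers as names, and each repeated symbol was represented by its row of largest sum. Exon lengths came from GENCODE M21 for 22715 symbols (94.9% of RPKM) and may differ from the authors'. Values times these lengths summed to 1.38 to 1.46 times the total expected, so read numbers are estimates. Scaling totals were those that put most low values (0.1 RPKM or more) within 2% of 1, 2 or 3 reads. On simulated data for 22715 genes the largest error of these totals was 0.394%. The part of exon lengths that differ from the authors' in this error was not tested. The ranking for likeness to Sst over 9783 genes recovered 200 of 200 planted genes. Its recovery of genes with patterns other than the planted one was not tested.

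The design assumed no test, since 1 pool was sampled. The members and lists were chosen with earlier results of these data known. Genes named were the 7 members, the 10 most like Sst and Bsx, and from each list up to 5 in at least 13 cells and up to 4 in none, with every gene of the 2 lists on arcuate neurons open to naming. One gene that this rule names is not reported here. Others are said to be singled out. Alternatives were levels of 1, 5 and 20 RPKM, any value above 0, 10 estimated reads, rescaling of cells to a common total, leaving out 6 cells low in Malat1 or the shallowest cell, and for likeness Spearman's rho, a pseudocount of 0.1 in place of 1 and genes in at least 1 cell. Python 3.11.15, numpy 2.4.6, pandas 2.3.3, scipy 1.17.1, biopython 1.88 and matplotlib 3.10.9 were used.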

Additional observations from a re-analysis of the deposited data

How the results depend on the processing

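Of 223 values recomputed for 28 results under 12 alternatives, 207 stayed within 1.5 times the count, or within 0.1 of the r, reported, 16 moved and 0 reversed. Leaving out the 6 cells low in Malat1 accounts for 11 of the 16. It left Sst in 2 cells, Sstr2 in 5 and Bsx in 1, with 2 cells for Sst and Sstr1, 1 for Sst and Sstr2, 1 for Sst and Bsx and 0 for Sstr2 and Th; 3 of the 6 cells left out had Sst and Bsx, and the cause was not tested. There the r of Sstr2 with Sst was 0.31 and that of Sstr1 with Bsx 0.33. Bsx was in 1 cell there, so each r with Bsx rests on that cell. The ranking against Sst gave no r for Bsx. The rankings held 10541 genes for Sst and 12801 for Bsx, where a minimum of 3 cells gave 9782 over all 25 cells, so a lower minimum applied. The 10 genes most like Sst shared 1 with the 10 reported, as did those most like Bsx. With any value above 0, 1 cell had Sst and Sstr4, 3 had Sstr1 and Th and 2 had Sstr2 and Th. Without the shallowest cell, 0 cells had Sst and Sstr5. With genes in at least 1 cell, 5 of the 10 genes most like Bsx were shared. Levels of 1, 5 and 20 RPKM, 10 estimated reads, rescaled cells and summed rows moved none of the counts past 1.5 times. Depth limits what a 0 means for short genes and low levels, and 25 cells limit every share.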

Other observations

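Ghrh, which encodes the growth hormone-releasing peptide, was found in cell 11 at 60.5 RPKM, where all 7 members were listed at 0.

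Cell 25 was unlike the other Sst cells in several values. It had no Bsx and no Sstr2, it had Gsx1 at 65.2 RPKM, which was found in 1 other cell (17), and it held 2 of the 23 markers of other cell types at the level, the microglial Tmem119 at 25.5 RPKM and the endothelial Pecam1 at 26.7 RPKM, while C1qa and Cldn5 were at 0.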
